A study of Mus musculus with 4 samples.

Results

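The JAK-STAT and SOCS genes Jak1, Jak2, Stat3, Stat4, Stat5a, Stat5b, Stat6, Socs1, Socs3 and Cish were followed through the immune infiltrate of a mouse glioma. They were chosen by symbol, and all 10 were found among the 31253 genes of the files. JAK kinases sit on the intracellular tails of cytokine receptors. When a cytokine draws the receptor chains together, the kinases phosphorylate the receptor and the STAT proteins, which pair, enter the nucleus and turn on target genes. Among the targets are the genes of the SOCS family, Cish included, whose proteins act back on the receptor and the kinases and end the signal. Different receptors use different STATs: STAT3 follows IL-6, IL-10 and IL-21, STAT4 follows IL-12, STAT5 follows IL-2, IL-7 and IL-15, and STAT6 follows IL-4 and IL-13.

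The infiltrate came from C57Bl/6 mice that carried CT2a, a mouse glioma line, in 1 hemisphere of the brain. Live CD45+ cells of that hemisphere were sorted on day 14 after implantation and profiled by single-cell RNA sequencing with 10x Genomics 3′ chemistry. The groups were 4 WT mice and 4 CaMKK2 KO mice (CaMKK2-/-), all bearing CT2a that itself was not altered. Each mouse carried its own hashtag antibody and is named here by it. The mice of a genotype shared 1 channel, so channel and genotype cannot be told apart. The animals used were female, matched for age and 8 to 12 weeks old, as stated for the experiments in general.

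After filtering, 5225 WT and 5770 CaMKK2 KO cells remained, with a median of 12708 and 11535.5 UMIs, and each mouse contributed 12647637 to 20933990 UMIs. The channels shared 42 cell barcodes. The targeted gene was checked first. Camkk2 was at 28.53, 29.35, 38.43 and 27.75 CPM (UMIs of a gene scaled to a fixed total) in the cells of WT mice 1 to 4, and at 14.75, 17.9, 13.38 and 22.38 CPM in those of CaMKK2 KO mice 1 to 4. The genotypes did not overlap, and Camkk2 transcripts were still counted in the CaMKK2 KO mice. Cells were placed in 12 classes by marker genes that include no gene of this pathway: tumor-associated macrophages (TAM, 3142 cells), microglia (640), classical monocytes (cMono, 1084), non-classical monocytes (ncMono, 225), DC1 (91), DC2 (465), mature DC (177), NK cells (1374), CD8 T cells (713), CD4 T cells (262), Treg (247) and B cells (356). No class had more markers of another class than of its own among its 10 leading genes. All T cell classes needed at least 3 of the 4 T cell markers, and the Treg class, which also needed Foxp3, had it as its leading gene. The gates used these same markers, so their lead follows from the gates and is no independent check of the classes. Values below are CPM of the UMIs summed per mouse and class. A mouse entered a class with at least 5 cells, which left out WT mouse 1 from CD4 T cells (0 cells) and mature DC (3 cells) and CaMKK2 KO mouse 4 from DC1 (2 cells).

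The promoters of the feedback inhibitors are shown because these genes are known STAT targets, and because Cish was called between the genotypes and Socs1 varied most between mice. They are the 250 bases before the gene start in RefSeq on GRCm38.p6, written 5′ to 3′ on the strand of the gene. Socs1 is at chr16:10785537-10785786 on the minus strand, Socs3 at chr11:117969367-117969616 on the minus strand and Cish at chr9:107296409-107296658 on the plus strand. The annotation of the count files begins Socs3 and Cish further upstream, so that these windows lie inside the genes as counted. Capitals mark matches to the STAT palindrome TTCNNNGAA or to the core repeat of interferon-response elements, which is GAAA, any 2 bases and GAAA again (called the GAAA repeat here), searched on both strands.
Socs1: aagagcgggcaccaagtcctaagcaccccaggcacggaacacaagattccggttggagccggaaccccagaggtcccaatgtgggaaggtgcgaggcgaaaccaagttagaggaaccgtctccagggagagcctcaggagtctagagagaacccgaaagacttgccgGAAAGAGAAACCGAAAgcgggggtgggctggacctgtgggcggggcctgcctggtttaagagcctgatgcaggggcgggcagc
Socs3: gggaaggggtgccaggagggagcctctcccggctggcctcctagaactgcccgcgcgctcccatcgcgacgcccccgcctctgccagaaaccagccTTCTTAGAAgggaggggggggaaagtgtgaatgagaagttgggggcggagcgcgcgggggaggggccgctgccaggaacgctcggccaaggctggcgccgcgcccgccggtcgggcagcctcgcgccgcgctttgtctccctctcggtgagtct
Cish: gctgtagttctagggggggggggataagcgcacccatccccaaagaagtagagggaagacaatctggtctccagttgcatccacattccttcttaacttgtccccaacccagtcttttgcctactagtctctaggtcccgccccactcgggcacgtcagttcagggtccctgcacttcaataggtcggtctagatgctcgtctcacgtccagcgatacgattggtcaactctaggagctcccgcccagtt
The capitals in the Socs1 promoter are 2 overlapping matches to the GAAA repeat, the first of which starts 83 bases before the gene start. The Socs3 promoter holds 1 TTCNNNGAA match that starts 154 bases before the gene start, and neither motif occurs in the Cish window. Of 32851 promoters of this length, 7.02% held TTCNNNGAA and 2.98% held the GAAA repeat. Among the 10 members, TTCNNNGAA was found in Socs3 alone and the GAAA repeat in Stat4 and Socs1. A match is a description of the letters and not a bound site.

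The first question was where in the infiltrate each gene is expressed. T and NK cells, summed per mouse, were compared with TAM, cMono and microglia summed in the same mouse. Such sums weigh each class by its UMIs. TAM gave the most cells to the phagocyte sum (3142) and NK cells to the lymphoid sum (1374), so single classes can depart from these differences. All 10 genes differed between these lineages, 7 higher in lymphoid cells and 3 higher in phagocytes. In this contrast 76.0% of all 11706 genes tested were called, so that a call is common. The size of the differences separates the genes more than the calls do.

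Of the kinases, Jak1, which serves most cytokine receptors, was the lymphoid one. It was at 346 to 441 CPM (median 386) in lymphoid cells and at 109 to 130.2 CPM (median 118) in phagocytes, a log2 difference of 1.72 (SE 0.06, adjusted p = 2.35e-11, edgeR). Jak2, which serves the receptors of IFN-γ and GM-CSF, leaned the other way, at 36.4 to 61.7 CPM in lymphoid cells and 37.8 to 126 CPM in phagocytes (log2 difference -0.73, SE 0.14, adjusted p = 4.26e-04, edgeR). The Jak1 ranges were far apart, whereas those of Jak2 overlapped and 1 of 8 mice had more Jak2 in its lymphoid cells. Among the phagocytes, Jak2 averaged 173 CPM in cMono, 63.6 CPM in TAM and 41.9 CPM in microglia. Its class means were 106 CPM in CD4 T cells, 70.6 CPM in Treg, 43.8 CPM in NK cells and 34.2 CPM in CD8 T cells.

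Among the STATs, Stat4, known for IL-12 signalling in NK and T cells, differed most. It was at 96.9 to 189.9 CPM in lymphoid cells and at 4.86 to 7.29 CPM in phagocytes, a log2 difference of 4.58 (SE 0.13, adjusted p = 2.66e-12, edgeR). Stat3, Stat5a and Stat5b were higher in the lymphoid sum by 0.48, 0.72 and 0.60 on the log2 scale. For Stat3 this held against TAM and microglia (class means of 109 and 134 CPM). In cMono it averaged 199 CPM, above CD4 T (183 CPM), Treg (180.1 CPM), CD8 T (177 CPM) and NK cells (171 CPM). Stat6, the STAT of IL-4, was lower in the lymphoid sum by only a little (log2 difference -0.25, adjusted p = 0.00336, edgeR). Stat6 was lower in the lymphoid cells of all 8 mice, at 47.6 to 60.9 CPM against 53.0 to 73.4 CPM. Stat5a and Stat5b are neighbouring paralogs, and the 3′ ends of Stat3 and Stat5a overlap by 72 bases on opposite strands. Whether this overlap touched their counts was not tested.

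The feedback inhibitors split. Socs3, known for restraining IL-6 signalling, was the phagocyte gene, at 313 to 542 CPM in phagocytes and 32.7 to 61.4 CPM in lymphoid cells (log2 difference -3.18, SE 0.08, adjusted p = 1.16e-12, edgeR). Cish was the lymphoid gene, at 108 to 171 CPM against 7.04 to 28.4 CPM (log2 difference 2.91, SE 0.17, adjusted p = 4.68e-09, edgeR). Socs1, known for restraining interferon signalling, was at 96.9 to 143 CPM in lymphoid cells, while its phagocyte level ran from 11.2 to 150.1 CPM, and 6 of 8 mice had more Socs1 in lymphoid cells (log2 difference 1.05, SE 0.33, adjusted p = 0.0110, edgeR). Relative to its level, Socs1 in phagocytes varied most between mice of the 10 genes. The 10 differences kept their direction and their call with TMM scaling and without each mouse in turn.

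**Figure D1:**
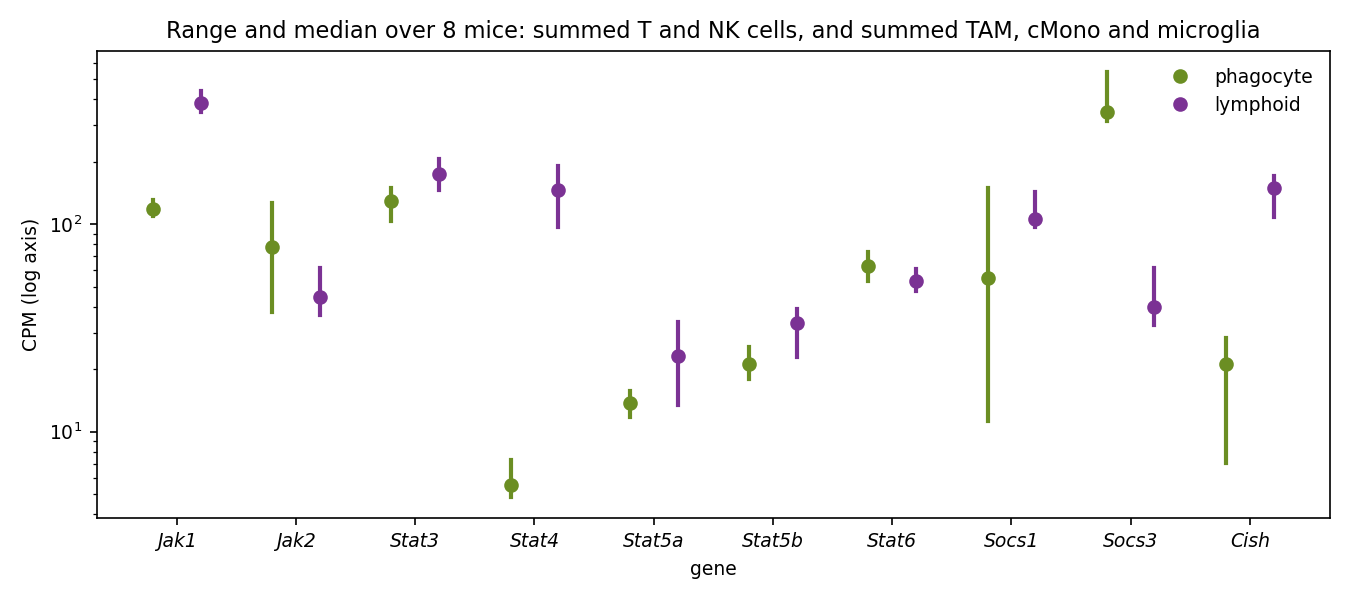
CPM (log axis) of each gene in the lymphoid sum (T and NK cells) and the phagocyte sum (TAM, cMono and microglia) of a mouse. Points are medians and lines run from the lowest to the highest of 8 mice. The lines of Jak1, Stat4, Socs3 and Cish lie far apart between the lineages, those of the other genes overlap, and the Socs1 line in phagocytes is long, from 11.2 to 150.1 CPM.

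Over the 12 classes, mature DC, the migratory dendritic cells that express Ccr7 and Fscn1, stood at the top for 4 genes. Stat4 averaged 816 CPM in mature DC, with 623 to 1034 CPM over 7 mice, against 4.03 CPM in microglia, its lowest class, a ratio of 202. Stat3 averaged 684 CPM there and 109 CPM in TAM, its lowest class. Jak2 averaged 528 CPM in mature DC and 34.2 CPM in CD8 T cells, and Stat5a 117 CPM in mature DC and 9.81 CPM in B cells. In DC2, from the same lineage, Stat4 was at 33.9 to 63.7 CPM. Every mouse with both classes therefore had several times more Stat4 in mature DC than in DC2.

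The other genes peaked elsewhere. Jak1 was highest in NK cells (mean 483 CPM) and lowest in DC1 (97.0 CPM). Stat5b and Stat6 were highest in ncMono, at 83.1 and 89.7 CPM, and lowest in DC1, at 15.9 and 40.0 CPM. The Stat6 span of 2.24-fold between its highest and lowest class was the smallest of the 10 genes. Socs3 was highest in microglia (562 CPM), followed by cMono (462 CPM) and ncMono (448 CPM), and lowest in CD8 T cells (24.4 CPM). Cish and Socs1 had the same highest class, Treg, at 319 and 156 CPM, and the same lowest class, B cells, at 6.72 and 35.9 CPM. For Cish the order Treg, CD4 T, CD8 T and NK took the first places with 319, 268, 191 and 73 CPM, and for Socs1 Treg was followed by CD4 T (151 CPM), mature DC (125 CPM), cMono (113 CPM), CD8 T (109 CPM) and NK cells (106 CPM).

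Neighbours in these orders were compared within mice. In a two-sided exact sign-flip permutation test of the within-mouse difference, 0 of the 110 neighbouring pairs passed the adjusted threshold. The smallest adjusted p was 0.115, and 22 pairs had an unadjusted p under 0.05. In this test 8 mice cannot give a p below 0.00781, nor 7 mice one below 0.0156. Over 110 pairs such floors put the adjusted threshold nearly out of reach, so the outcome does not show that neighbours are alike. In 13 pairs every mouse had the same order, as for Jak1 in NK over CD4 T cells (mean log2 difference 0.65, SD 0.24, n = 7). Another was Stat4 in mature DC over CD4 T cells (mean log2 difference 2.15, SD 0.58, n = 7). The highest class of all 10 genes was the same with a mean over cells, with outlying cells kept and with stricter gates.

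**Figure D2:**
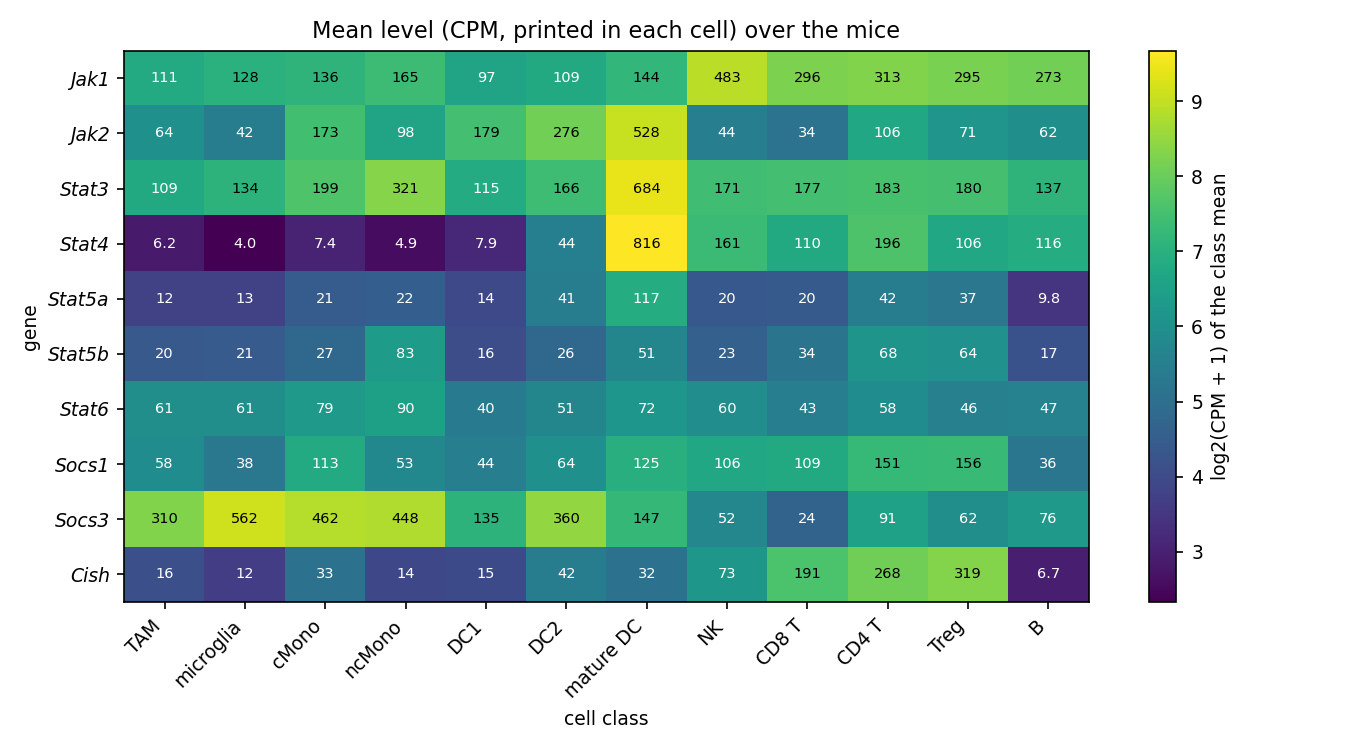
Mean CPM of the 10 genes (rows) in the 12 classes (columns) over the mice with at least 5 cells. The color gives log2(CPM + 1) of the class mean, and the number in each field is that mean. The mature DC column is brightest for Jak2, Stat3, Stat4 and Stat5a, and the lower rows show Socs3 in the myeloid classes and Cish in T cells and NK cells.

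The class profiles of some members resembled each other. Over the 12 class means, as log2(CPM + 1), Socs1 and Cish had r = 0.87 and Stat3 and Stat5a had r = 0.80, while Jak1 and Socs3 ran in opposite directions (r = -0.77). Classes share mice and channels, so these r values are descriptions. Of 8480 genes compared, those with the profile most like Socs3 were Dock4 (r = 0.97), Gm5617 (r = 0.97) and Atf3, a stress-induced transcription factor (r = 0.96). Cish was most like Ubl5 (r = 0.95), S100a13 and D16Ertd472e (both r = 0.94), and Socs1 like Slc9a3r1 (r = 0.95), Atp2b4 (r = 0.92) and Sar1a (r = 0.90). Stat4 was most like Mir155hg, the host transcript of miR-155 (r = 0.95), with Prps1 and Ubxn2a (both r = 0.94), and Stat5a like Nr4a3 (r = 0.92), Lrp8 (r = 0.91) and Zfc3h1 (r = 0.90). Jak1 was most like Ubtf (r = 0.95), Kpna1 and Aven (both r = 0.94), and Jak2 like Tgtp1, an interferon-inducible GTPase (r = 0.94), Gosr2 (r = 0.93) and Parp3 (r = 0.92). Stat3 was most like Emd (r = 0.93), Myo1g (r = 0.92) and Cdc42ep3 (r = 0.91), Stat5b like Prr13 (r = 0.95), Tmx3 (r = 0.91) and Wapl (r = 0.88), and Stat6 like Cdc42ep2, Ilrun and Rhoa (all r = 0.90).

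The second question was whether the genes differ between the genotypes within a class. The 2 calls were both decreases in lymphoid cells of CaMKK2 KO mice, Cish in NK cells and Stat3 in CD8 T cells. The members were called about as often as all genes, in 1.98% against 1.63% of fits. The Stat3 call was lost in 7 of 19 alternatives. The largest fold change was an increase, that of Socs1 in B cells (2.74), and it was not called. Of the 120 combinations of gene and class, 101 had the 100 UMIs needed for the test and 2 were called. The 19 combinations not tested had 13 UMIs in all (Cish in B cells) to 96 (Stat5b in mature DC), and Stat4 in microglia (39) and cMono (86) was among them. Among all genes tested, the share called in either direction was 3.12% in NK cells, 2.69% in TAM, 1.60% in microglia, 1.60% in CD8 T cells, 1.38% in cMono, 1.13% in DC2, 0.689% in Treg, 0.653% in ncMono, 0.651% in DC1, 0.619% in CD4 T cells, 0.591% in mature DC and 0.511% in B cells, and 1.63% over the fits of all 12 classes, beside 1.98% of the members' fits. At any size, 45 fits leaned up and 55 down in CaMKK2 KO mice. Leaving aside the subsets of NK and CD8 T cells fitted below, 48 of the 101 turned their direction under at least 1 alternative. None of them turned at an adjusted p under 0.05. In 20 fits (19.8%) the unadjusted p was under 0.05, against 15.4% of the fits of all genes, which ran from 9.05% in ncMono to 20.5% in TAM. In 10 fits (9.90%) the mice of the genotypes did not overlap, against 10.2% over all genes, so the members did so about as often as other genes. The median log2 fold change of the members tested was 0.06 in NK cells (10 members), 0.12 in TAM (10), -0.13 in CD8 T cells (10) and -0.33 in Treg (8), beside a median over all genes of 0.07, -0.07, 0.06 and -0.03.

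**Figure D3:**
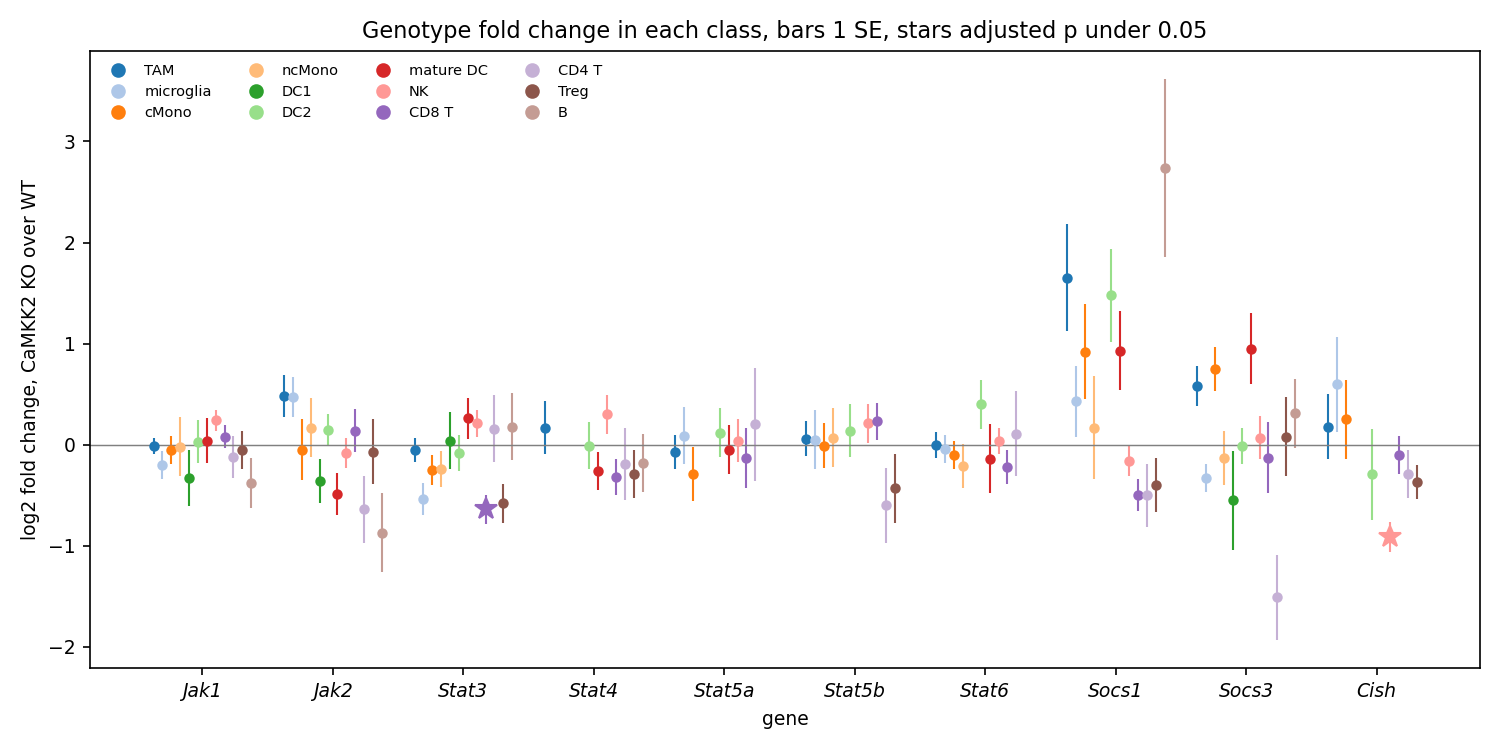
Log2 fold change, CaMKK2 KO over WT, of each gene (x axis) in each class in which it was tested (colors, with bars of 1 SE). Stars mark the 2 fits with an adjusted p under 0.05, Stat3 in CD8 T cells and Cish in NK cells. The widest scatter is that of Socs1, from -0.50 in CD8 T cells to 2.74 in B cells.

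Cish encodes CIS, an inhibitor that STAT5 induces after IL-2 or IL-15 and that is known to restrain IL-15 signalling in NK cells. In NK cells it was at 95.3, 110.2, 90.4 and 88.7 CPM in WT mice 1 to 4 and at 58.7, 62.2, 41.7 and 39.4 CPM in CaMKK2 KO mice 1 to 4. All 4 WT mice lay above all 4 CaMKK2 KO mice. The means were 96.1 ± 9.78 and 50.5 ± 11.7 CPM (SD, n = 4 each), and the log2 fold change was -0.91 (SE 0.15, adjusted p = 0.00318, edgeR). The call held in each of 21 alternatives, with adjusted p from 3.67e-08 to 0.0187.

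NK cells were split by their raw UMIs of Gzmc, which encodes granzyme C, and the share above the cut differed between mice. The share of NK cells with at least 5 Gzmc UMIs was 34.3%, 36.3%, 30.8% and 38.1% in the WT mice and 23.6%, 13.5%, 43.9% and 9.47% in the CaMKK2 KO mice (two-sided exact permutation p = 0.200, adjusted p = 0.400 over 8 shares tested). Raw UMIs also depend on depth. CaMKK2 KO mouse 3, with the highest share, had the deepest NK cells (median 10849 UMIs). CaMKK2 KO mice 2 and 4, with the lowest shares, had the shallowest (5467 and 5619 UMIs). Whether the split follows kinds of NK cell or depth was not tested. Both groups of NK cells were fitted on their own. With at least 5 Gzmc UMIs, Cish was at 92.2, 90.5, 79.9 and 81.1 CPM in WT and 52.2, 51.3, 33.7 and 39.0 CPM in CaMKK2 KO mice (log2 fold change -1.01, adjusted p = 0.00313, edgeR). With fewer, it was at 99.5, 143, 104 and 100.3 CPM in WT and 64.6, 68.2, 58.9 and 39.5 CPM in CaMKK2 KO mice (log2 fold change -0.91, adjusted p = 0.00643, edgeR). The genotypes did not overlap in either group. With at least 5 Gzmc UMIs, CaMKK2 KO mouse 4 had 9 cells, against 35 to 122 in the other mice. Without cycling cells the log2 fold change was -0.95 (adjusted p = 0.00230, edgeR).

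Depth per NK cell also differed between mice, so cells were thinned to 5000 UMIs and shallower cells left out. The share of NK cells with a Cish UMI was then 37.9%, 37.9%, 26.3% and 31.8% in the WT mice and 26.6%, 27.7%, 15.2% and 11.5% in the CaMKK2 KO mice (two-sided exact permutation p = 0.0857, adjusted p = 0.229 over 8 shares). CaMKK2 KO mice 1 and 2 lay at or just above WT mouse 3, the lowest WT mouse, on this measure. Before thinning the shares were 43.6% to 59.8% in WT and 21.1% to 36.4% in CaMKK2 KO mice, at a median of 7459 to 9862 and 5467 to 10849 UMIs per NK cell. Microglia, which should hold little Cish, had a UMI in 1.64% to 6.67% of thinned cells, which was 1 to 7 cells per mouse. On these few cells the CaMKK2 KO mice lay above the WT mice (unadjusted exact permutation p = 0.0286, adjusted p = 0.229). Whether free RNA in the droplets gave these UMIs was not tested. The summed level of the 8 TAM markers in NK cells was 143 to 185 CPM in WT and 88.6 to 124 CPM in CaMKK2 KO mice, that of the 6 cMono markers was 436 to 641 and 890.4 to 1147 CPM, and that of the 4 T cell markers 41.7 to 51.3 and 51.7 to 83.1 CPM. The part of these in the Cish difference was not tested.

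Cish in T cells was not called. In CD8 T cells it was at 180.5 to 213 CPM in WT and 126 to 248 CPM in CaMKK2 KO mice (log2 fold change -0.10, adjusted p = 0.858, edgeR), and in Treg, its highest class, at 292 to 418 and 237 to 318 CPM (-0.37, adjusted p = 0.393, edgeR). In TAM the log2 fold change was 0.18. In cMono, Cish had 0 UMIs in WT mouse 1, with 21 cells, and was at 25.0 to 50.6 CPM in the other 7 mice.

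Stat3 in CD8 T cells was at 165, 187, 246 and 255 CPM in WT mice 1 to 4 and at 152, 144, 141 and 123 CPM in CaMKK2 KO mice 1 to 4. The lowest WT mouse was above the highest CaMKK2 KO mouse, and the WT mice varied more. That lowest value, of WT mouse 1, was 24 UMIs in 16 cells. The means were 213 ± 44.2 and 140.3 ± 12.4 CPM (SD, n = 4 each), with a log2 fold change of -0.64 (SE 0.14, adjusted p = 0.0275, edgeR). The adjusted p ranged from 8.99e-04 to 0.289 over 19 alternatives. It was above 0.05 when WT mouse 3, WT mouse 4 or any CaMKK2 KO mouse was left out (0.0514 to 0.129), and it was 0.289, at a log2 fold change of -0.51, when every cell was given equal weight in limma. Without cycling cells it was 0.0441, at -0.69. The share of cycling CD8 T cells was 6.25%, 19.3%, 24.5% and 21.2% in WT and 20.0%, 40.4%, 27.0% and 34.2% in CaMKK2 KO mice (two-sided exact permutation p = 0.0857, adjusted p = 0.229 over 8 shares). In the same cells the 8 TAM markers summed to 153 to 180.1 CPM in WT and 100.1 to 160.5 CPM in CaMKK2 KO mice, and the 6 cMono markers to 1056 to 1407 and 1221 to 2772 CPM. Their part in the Stat3 difference was not tested.

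Stat3 also separated the genotypes in Treg and in microglia without passing the test. In Treg it was at 222, 184, 248 and 206 CPM in WT and at 141, 147, 129 and 165 CPM in CaMKK2 KO mice (log2 fold change -0.58, SE 0.19, adjusted p = 0.194, edgeR). The Treg values of WT mouse 1 and CaMKK2 KO mouse 4 were 7 UMIs in 6 cells and 16 UMIs in 14 cells. In microglia it was at 189, 149.6, 166 and 131 CPM in WT and at 119.9, 123, 111 and 82.2 CPM in CaMKK2 KO mice (-0.54, SE 0.16, adjusted p = 0.128, edgeR). The median gene of microglia was itself at a log2 fold change of -0.12 under total-UMI scaling and -0.01 under TMM. In NK cells and TAM the Stat3 fold changes were 0.21 and -0.05, and their groups overlapped.

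**Figure D4:**
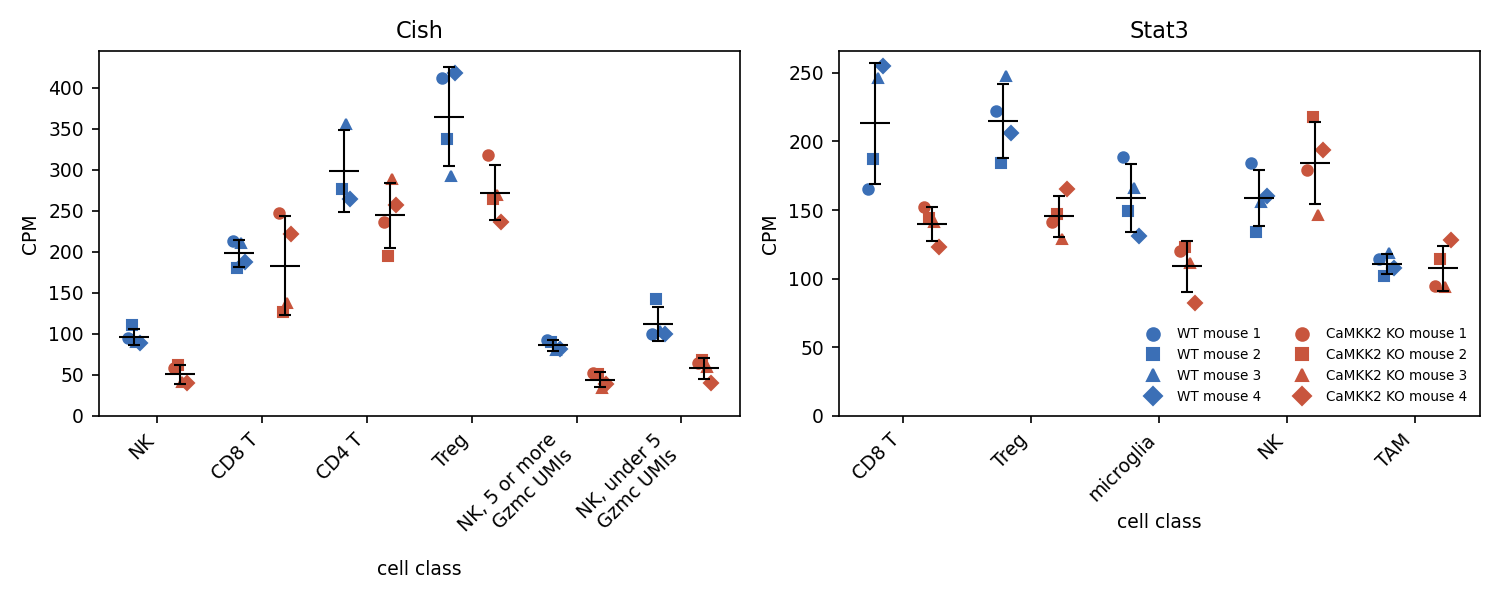
CPM of Cish (left) and Stat3 (right) in each mouse, by class. Symbols mark the mouse, blue WT and red CaMKK2 KO, and the black lines are the mean and 1 SD over mice. In NK cells, and in the NK cells with at least 5 or under 5 Gzmc UMIs, every WT point of Cish lies above every CaMKK2 KO point, and Stat3 separates the genotypes in CD8 T cells, Treg and microglia but not in NK cells or TAM.

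Socs1 had the largest fold changes of the 10 genes, and none was called. In TAM it was at 7.62, 20.0, 46.1 and 37.9 CPM in WT mice 1 to 4 and at 71.7, 111, 34.8 and 137 CPM in CaMKK2 KO mice 1 to 4. CaMKK2 KO mice 2 and 4 were high, WT mouse 1 was low, and CaMKK2 KO mouse 3 lay among the WT mice. The log2 fold change was 1.65 (SE 0.53, adjusted p = 0.125, edgeR). In DC2 the values were 32.5, 10.8, 51.4 and 37.1 CPM in WT and 63.2, 160.4, 36.5 and 119.8 CPM in CaMKK2 KO mice (log2 fold change 1.48, adjusted p = 0.166, edgeR). In cMono they were 4.17, 58.3, 151 and 74.0 CPM in WT and 112, 215, 95.0 and 193 CPM in CaMKK2 KO mice (0.92). The cMono value of WT mouse 1 was 1 UMI in 21 cells. In cMono 6 neutrophil markers summed to 18.5 to 3505 CPM in WT and 9.87 to 107 CPM in CaMKK2 KO mice. Their part in the cMono values was not tested. In B cells Socs1 had 0 UMIs in WT mice 1 and 4, was at 12.6 and 21.5 CPM in WT mice 2 and 3, and at 8.89, 106, 7.93 and 129.8 CPM in CaMKK2 KO mice (fitted log2 fold change 2.74, adjusted p = 0.136, edgeR). In each of these classes CaMKK2 KO mice 2 and 4 were the highest of the 8. Without a filter on low counts, the adjusted p of Socs1 was 0.00118 in DC2 and 8.06e-06 in B cells, and over all alternatives it ranged from 0.0653 to 0.273 in TAM, from 0.00118 to 0.539 in DC2 and from 8.06e-06 to 0.529 in B cells.

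T cells had no such pattern, and not all myeloid classes had it. In mature DC the same mice were the highest of 7, at 223 and 147 CPM. In microglia CaMKK2 KO mouse 4 was at 29.7 CPM, below WT mice 2 and 3 at 37.6 and 49.7 CPM (log2 fold change 0.43). In ncMono WT mouse 4 was the highest, at 116 CPM (log2 fold change 0.17). In CD8 T cells Socs1 was at 117, 101, 157 and 129 CPM in WT and 93.7, 71.5, 90.5 and 111 CPM in CaMKK2 KO mice (log2 fold change -0.50, adjusted p = 0.126, edgeR). CaMKK2 KO mouse 2, among the highest in phagocytes, was the lowest here. In CD4 T cells and Treg the log2 fold changes were -0.50 and -0.40, in NK cells -0.16. The genotype effect on Socs1 in TAM differed from that in CD8 T cells by 2.18 and from that in NK cells by 1.87 on the log2(CPM + 1) scale, each with an unadjusted two-sided exact permutation p of 0.0286, the smallest that 4 mice against 4 allow, and an adjusted p of 0.286. Over the 10 genes and 5 pairs of classes, 0 of 50 such differences passed the adjusted threshold and 5 had an unadjusted p under 0.05, the other 3 being Cish, Socs3 and Jak1 in TAM against NK cells (1.21, 0.49 and -0.25). With a smallest p of 0.0286 the adjusted threshold over 50 tests was nearly out of reach, so the 0 does not show that the effects are alike.

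The level of Socs1 in TAM was set against its level in 6 other classes of the same 8 mice. It ran with cMono at r = 0.91 (exact permutation p = 5.70e-04, adjusted p = 0.00342; rho = 0.93, p = 0.00223, adjusted p = 0.00670), and r was 0.88 without the 2 mice farthest from the TAM median. With DC2 r was 0.79 (exact permutation p = 0.0215, adjusted p = 0.0429) and rho 0.95 (p = 0.00114, adjusted p = 0.00670), and r was 0.97 without those mice. With B cells r was 0.78 (exact permutation p = 0.0200, adjusted p = 0.0429) and rho 0.75 (p = 0.0380, adjusted p = 0.0760), and r fell to 0.51 without those mice, so that this relation rested on them. With microglia r was 0.54, with NK cells 0.31 and with CD8 T cells -0.31, with adjusted p of 0.242, 0.459 and 0.459 in the same exact permutation test and rho of 0.31, 0.24 and -0.21 (adjusted p = 0.619 for each). These relations contain the difference between the genotypes, which is also that between the channels. With each genotype centred on its own mean, r with cMono was 0.88 (exact permutation within genotypes, p = 0.00347, adjusted p = 0.0208 over the 6 classes). Centred in the same way, r was 0.60 with DC2 and 0.63 with B cells (adjusted p = 0.229 for each in that exact permutation test). Those 2 relations were thus not shown within the genotypes, which is not evidence of their absence. In the WT mice alone r was 0.34 with DC2 and 0.46 with B cells, and in the CaMKK2 KO mice alone 0.94 and 0.88. The centred r was 0.74 with NK cells (adjusted p = 0.125), 0.48 with microglia (0.296) and 0.39 with CD8 T cells (0.380).

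Irf1, Usp18 and Ifng are given beside Socs1 and were chosen after their values were seen. Ifngr1, Il2rb, Il15, Il6st, Pim1, Il2ra, Il12rb1 and Il12rb2 were looked at in the same way and are not shown. Irf1 is a transcription factor that interferon induces, and Usp18 an inhibitor of interferon signalling that interferon also induces. In TAM, Irf1 was at 31.9, 75.6, 98.1 and 87.6 CPM in WT and 116, 224, 94.0 and 232 CPM in CaMKK2 KO mice (log2 fold change 1.18, adjusted p = 0.125, edgeR). As for Socs1, WT mouse 1 was the lowest and CaMKK2 KO mice 2 and 4 the highest. Usp18 did not share this order, at 21.7, 95.1, 130.2 and 107 CPM in WT and 135, 105, 60.3 and 216 CPM in CaMKK2 KO mice (log2 fold change 0.53, adjusted p = 0.575, edgeR), with CaMKK2 KO mouse 2 below WT mice 3 and 4. Ifng itself, the ligand that NK and T cells make, was at 9.91, 45.4, 106 and 55.0 CPM in NK cells of WT and 101, 192, 48.0 and 165 CPM in those of CaMKK2 KO mice (1.17, adjusted p = 0.188, edgeR). In NK cells WT mouse 1 was again lowest and CaMKK2 KO mice 2 and 4 highest. In Treg, with too few UMIs for the test, Ifng was at 0, 25.7, 0 and 29.4 CPM in WT and 14.4, 81.3, 19.3 and 103 CPM in CaMKK2 KO mice. CaMKK2 KO mice 2 and 4 were highest there too, and WT mice 1 and 3 were at 0. The order differed in CD8 T and CD4 T cells. In CD8 T cells Ifng was at 109.9, 309, 529 and 233 CPM in WT mice 1 to 4 and at 397, 180.2, 151 and 306 CPM in CaMKK2 KO mice 1 to 4 (-0.31, adjusted p = 0.718, edgeR). In CD4 T cells it was highest in WT mouse 3, at 2009 CPM (-0.09, adjusted p = 0.984, edgeR). Whether Ifng is linked to the levels of Socs1 and Irf1 was not tested. Beside these values, the 6 cMono markers summed to 777 to 1949 CPM in WT and 1894 to 6018 CPM in CaMKK2 KO TAM, and the 8 TAM markers to 16304 to 18077 and 12002 to 16787 CPM. None of the TAM markers was at 0, and the part of the monocyte markers in the TAM values was not tested.

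**Figure D5:**
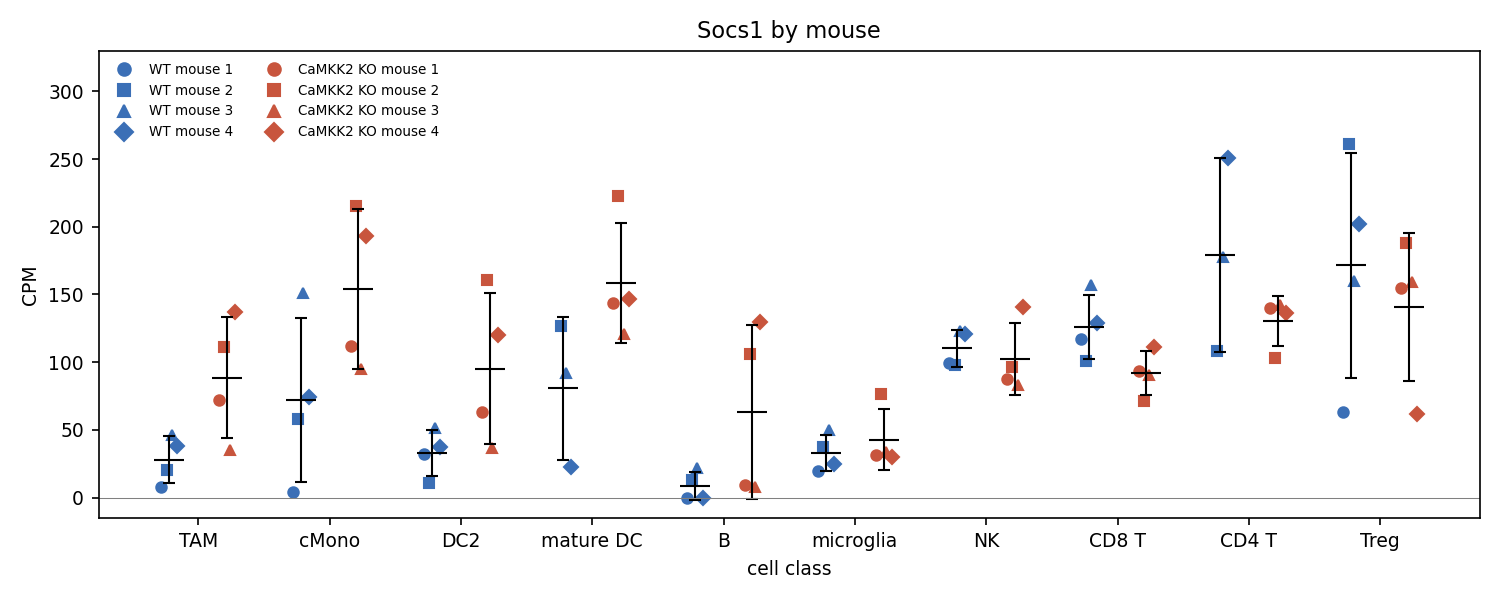
CPM of Socs1 in each mouse, by class. Symbols mark the mouse, blue WT and red CaMKK2 KO, and the black lines are the mean and 1 SD over mice. CaMKK2 KO mice 2 (squares) and 4 (diamonds) are the highest in TAM, cMono, DC2 and B cells, while in CD8 T cells CaMKK2 KO mouse 2 is the lowest at 71.5 CPM.

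Socs3 was not called in any class. In TAM it was at 181, 209, 299 and 303 CPM in WT and 316, 431, 294 and 444 CPM in CaMKK2 KO mice (log2 fold change 0.58, SE 0.20, adjusted p = 0.149, edgeR). In cMono the genotypes did not overlap, at 246, 295, 402 and 432 CPM in WT and 448, 745, 470 and 655 CPM in CaMKK2 KO mice (0.75, SE 0.22, adjusted p = 0.148, edgeR), nor did they in mature DC, at 51.5, 136 and 96.3 CPM in WT mice 2 to 4 and 293, 151, 158 and 142 CPM in CaMKK2 KO mice (log2 fold change 0.95, adjusted p = 0.272, edgeR). In microglia, its highest class, the values ran from 539 to 793 CPM in WT and 415 to 541 CPM in CaMKK2 KO mice (-0.33, adjusted p = 0.294, edgeR). Socs3 in CD4 T cells depended on 1 mouse and on the method. It was at 184, 35.6 and 211 CPM in WT mice 2 to 4 and at 50.1, 63.5, 38.9 and 51.5 CPM in CaMKK2 KO mice, and the log2 fold change of -1.51 (adjusted p = 0.150, edgeR) became -1.91 with an adjusted p of 0.0199 without WT mouse 3. DESeq2 gave an adjusted p of 0.0340, and over 15 alternatives it ranged from 0.0117 to 0.475. These WT mice had 11 to 14 CD4 T cells each, and the Socs3 value of WT mouse 3 was 2 UMIs in 11 cells.

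Neither kinase was called in any class. Jak1 in NK cells was at 429.9, 447, 444 and 444 CPM in WT and 515, 538, 458 and 586 CPM in CaMKK2 KO mice, with no overlap, a log2 fold change of 0.24 and an adjusted p of 0.208 in edgeR. In the other 11 classes its log2 fold change lay between -0.38 and 0.08. Jak2 in mature DC was at 535, 552 and 810 CPM in WT mice 2 to 4 and at 463, 436, 521 and 381 CPM in CaMKK2 KO mice (log2 fold change -0.49, adjusted p = 0.338, edgeR). In CD4 T cells it was at 119 to 160 CPM in WT and 66.4 to 110.3 CPM in CaMKK2 KO mice (-0.64, adjusted p = 0.402, edgeR). Neither pair of groups overlapped and neither passed the test. In TAM, Jak2 was at 39.8 to 63.5 CPM in WT and 52.8 to 96.5 CPM in CaMKK2 KO mice (0.48, adjusted p = 0.235, edgeR). In microglia it was at 29.5 to 41.8 and 40.0 to 63.2 CPM (0.47, adjusted p = 0.280, edgeR). The largest Jak2 fold change was in B cells, at 35.5 to 133 CPM in WT and 26.8 to 62.2 CPM in CaMKK2 KO mice (-0.87, SE 0.39, adjusted p = 0.254, edgeR).

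Stat4, Stat5a, Stat5b and Stat6 were not called in any class. The Stat4 fold changes ran from -0.32 in CD8 T cells to 0.30 in NK cells over 8 classes, those of Stat5a from -0.29 in cMono to 0.20 in CD4 T cells over 8 classes, those of Stat5b from -0.60 in CD4 T cells to 0.23 in CD8 T cells over 9 classes and those of Stat6 from -0.22 in CD8 T cells to 0.40 in DC2 over 9 classes. Stat5b in CD8 T cells did not overlap between the genotypes, at 13.7, 33.5, 35.5 and 33.7 CPM in WT and 36.4, 42.9, 38.1 and 41.0 CPM in CaMKK2 KO mice. The low WT value came from mouse 1, with 16 CD8 T cells, and the adjusted p was 0.595. Stat4 in mature DC, where it was highest, was at 753 to 1034 CPM in WT and 623 to 881 CPM in CaMKK2 KO mice.

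Of 87 further genes of the pathway, in lists of inhibitors, receptors, ligands and targets, 71 were tested in at least 1 class, in 493 fits, of which 2 were called as higher and 4 as lower in CaMKK2 KO mice. These 6 calls are 1.22% of the fits, under the 1.63% over all genes, and 5 of the 6 were lost when single mice were left out. Among 15 inhibitors, 1 of 107 fits was called. Ptpn1, a phosphatase that acts on JAK kinases, rose in NK cells from 83.9, 89.0, 99.5 and 86.8 CPM in WT to 118, 147, 122 and 125 CPM in CaMKK2 KO mice (log2 fold change 0.52, adjusted p = 0.0199, edgeR). The adjusted p was 0.0530 to 0.0841 without WT mouse 1, 2 or 4 or CaMKK2 KO mouse 2, and 0.145 and 0.126 in the NK cells with at least 5 and under 5 Gzmc UMIs (log2 fold changes 0.46 and 0.44). Among 28 receptors, 1 of 190 fits was called. Il10ra, the ligand-binding chain of the IL-10 receptor, rose in NK cells from 39.6, 50.1, 53.2 and 53.6 CPM to 98.1, 77.5, 60.5 and 97.6 CPM (0.71, adjusted p = 0.0272, edgeR). Its adjusted p was 0.0560 to 0.111 without any 1 mouse other than CaMKK2 KO mouse 3, and 0.432 and 0.0514 in the NK cells with at least 5 and under 5 Gzmc UMIs (0.45 and 0.66). In both genes every CaMKK2 KO mouse was above every WT mouse, opposite in direction to Cish in the same cells.

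Among 20 ligands, 2 of 27 fits were called, both for Osm, which encodes oncostatin M, an IL-6 family cytokine. In TAM, Osm fell from 63.1, 104, 134 and 104 CPM in WT to 47.9, 58.5, 44.6 and 45.2 CPM in CaMKK2 KO mice (log2 fold change -1.04, adjusted p = 0.0297, edgeR), and in microglia from 155, 120.2, 179 and 129 to 82.7, 102, 63.4 and 57.7 CPM (-0.93, adjusted p = 0.0351, edgeR). In TAM the adjusted p was 0.0513 to 0.0847 without any 1 mouse other than WT mouse 1. In microglia it was 0.0690 under TMM scaling and 0.0538 to 0.100 without any 1 mouse other than CaMKK2 KO mouse 2. Among 24 target genes, 2 of 169 fits were called, both for Chil3, a chitinase-like protein known as a STAT6 target and as a monocyte gene. In TAM it fell from 740.4, 1065, 714 and 562 CPM in WT to 289, 377, 342 and 305 CPM in CaMKK2 KO mice (log2 fold change -1.23, adjusted p = 0.00828, edgeR). The summed cMono markers of the same TAM went the other way, from a median of 1351 CPM in WT to 2941 CPM in CaMKK2 KO mice. The part of monocyte content in the Chil3 values was not tested. In ncMono Chil3 fell from 15948, 5737, 2917 and 4644 CPM to 968, 2029.5, 1692 and 705 CPM (-2.42, adjusted p = 0.0325, edgeR), with WT mouse 1 represented by 6 cells. The log2 fold change in ncMono was -1.72 (adjusted p = 0.0269) without that mouse, and the call was lost without WT mouse 4 or any CaMKK2 KO mouse (adjusted p = 0.0612 to 0.160). The fall in TAM was called in all 10 alternatives. The median log2 fold changes in TAM and NK cells were -0.22 and 0.14 for the inhibitors, 0.21 and 0.29 for the receptors and 0.15 and 0.22 for the targets, beside -0.07 and 0.07 over all genes.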

How the data were processed

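The files deposited by the authors held raw UMI counts of each gene and each hashtag antibody in every barcode called as a cell. The submitters' processing notes name bcl2fastq 2.20, Cell Ranger 4.0.0, STAR 2.7.5c, Seurat and mm10. HTODemux of Seurat 5.3.0 (quantile 0.99) gave each barcode its mouse, and hashtag doublets, negatives, cells under 200 genes and outliers by 3 median absolute deviations were removed. No column belonged to another series.

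Cells were placed in classes by counts of detected markers from lists that hold no gene of the pathway. A cell in the gates of 2 lineages was left out. The smallest marker counts were set after the files had been seen, without looking at the 10 genes. The genes, the lists and the tests were chosen with earlier results of these data known, and 1 list of pathway genes is not reported here. The UMIs of all cells of a class in a mouse were added up. Genes reaching 100 UMIs over the class went into a quasi-likelihood F test in edgeR 4.0.16, scaled by total UMIs, adjusted by the Benjamini-Hochberg method over all genes of the class at 0.05. The study tested cells with MAST, and here mice were the replicates. The lineage fit had the mouse as a block. On simulated counts for each class, 12% (CD4 T) to 78% (CD8 T) of 200 genes changed by 2-fold were recovered, with 0 to 7.95% of calls false. DESeq2 1.42.0, limma 3.58.1, TMM scaling, other filters and gates, and leaving out each mouse were alternatives. Permutation tests went through every arrangement with numpy 2.4.6, and scipy 1.17.1 gave ranks and the adjusted p of the tests on shares of cells. The text names all 10 genes, the pathway genes called in a class and those looked at beside Socs1. It also names the 3 genes most like each of the 10 by Pearson's r of log2(CPM + 1) over class means, among genes with at least 20 CPM in 1 class. Shares of cells rest on counts of cells, so intervals and floors would cover counting error only, and none is given.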

Additional observations from a re-analysis of the deposited data

Results flagged for a closer look

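In 180 groups of 4 mice (a gene, a class and a genotype), 10 held 1 mouse far from the other 3 by Dixon's ratio. Chance flags about 1 in 20 groups, which is near this number. Stat4 gave 5 of the 10. In TAM, WT mouse 2 was at 6.83 CPM against 5.31 to 5.43 CPM in the other WT mice. In CD8 T cells, WT mouse 4 was at 150.3 CPM against 106 to 113 CPM, and CaMKK2 KO mouse 3 at 65.5 CPM against 109 to 114 CPM. In Treg, WT mouse 1 was at 63.4 CPM (2 UMIs in 6 cells) against 121 to 125 CPM. In B cells, WT mouse 4 was at 71.0 CPM (6 UMIs in 14 cells) against 135 to 142 CPM. Stat5b in CD8 T cells was at 13.7 CPM in WT mouse 1 (2 UMIs in 16 cells) against 33.5 to 35.5 CPM. Stat6 in DC2 was at 97.5 CPM in CaMKK2 KO mouse 4 against 46.3 to 49.4 CPM. Socs1 in CaMKK2 KO mouse 2 was high in microglia, at 76.1 CPM against 29.7 to 33.6 CPM, and low in CD4 T cells, at 103 CPM against 136 to 142 CPM. Socs3 in mature DC was at 293 CPM in CaMKK2 KO mouse 1 against 142 to 158 CPM.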

How the results depend on the processing

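The member and class fits with a log2 fold change of at least 0.5 in size, the 6 calls among the other pathway genes and the 10 lineage differences kept their direction under the alternatives run for each. Of all 101 fits of the 10 genes, 48 turned under at least 1 alternative, the largest at 0.40 in size (Socs1 in Treg, -0.40). This count leaves aside the subsets of NK and CD8 T cells. In NK cells with at least 5 Gzmc UMIs, Socs3 (-0.55 against 0.07 in all NK cells), Jak1 (-0.06 against 0.24), Stat3 (-0.03 against 0.21), Stat5a and Jak2 turned, none of them called. The fall of Cish in NK cells was called in all 21 alternatives, and the 10 lineage differences in all 9. The number of calls among the 101 fits of the 10 genes was 2, and it was 7 without a filter on low counts (Socs1 in DC2, B cells and CD8 T cells, Socs3 in cMono and CD4 T cells added), 1 in limma on mean CPM of cells, 3 in DESeq2 and 1 to 4 without 1 mouse. The 4 came without CaMKK2 KO mouse 3, when Socs1 in DC2 (log2 fold change 1.79), Stat4 in NK cells (0.49) and Jak1 in NK cells (0.31) joined Cish in NK cells, and the 1 without WT mouse 4 or CaMKK2 KO mouse 1, 2 or 4. Stat3 in CD8 T cells ranged from -0.73 to -0.55 without 1 mouse and was -0.51 in limma, where it was not called. The 6 calls among the other pathway genes became 20 in DESeq2, 7 under TMM scaling and 2 to 25 without 1 mouse. The 25 came without CaMKK2 KO mouse 3, the 2 without WT mouse 2 or CaMKK2 KO mouse 2 or 4, and 3 without WT mouse 1 or 4. Over all genes DESeq2 also called more than edgeR in TAM (620 against 278), though hardly more in NK cells (261 against 260). Calls over all genes without 1 mouse are not given here, so the counts without 1 mouse stand without that share. The cause of these moves in the counts was not tested.

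Over all genes, DESeq2 called 620 against 278 in edgeR in TAM, 219 against 99 in cMono, 160 against 76 in DC2, 39 against 18 in DC1, 56 against 21 in CD4 T cells and 39 against 13 in B cells, where TMM scaling called 23. Total, TMM and DESeq2 scaling put the share of calls lower in CaMKK2 KO mice at 58.3%, 45.5% and 40.6% in TAM, 56.5%, 37.1% and 35.1% in microglia, 47.4%, 67.4% and 63.2% in CD8 T cells and 46.7%, 70.0% and 85.7% in mature DC. DESeq2 put it at 46.7% against 34.2% in NK cells and 55.4% against 38.1% in CD4 T cells. The 4 alternatives that split NK cells by Gzmc or left out cycling cells, and the centring of Socs1 on each genotype, were chosen after seeing the data.

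No paired analysis was possible because hashtag numbers only name the mice of a channel. Classes with few cells limit what can be seen, most of all CD4 T cells, of which the WT mice tested had 11 to 14. P-values rest on 4 mice a genotype in 1 channel each.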
